A study of Mus musculus with 4 samples.

Results

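Dermal fat and lipid storage genes were followed in 4 RNA sequencing libraries of mouse skin. The set held 34 genes of 39179 in the count files. They were taken by name as adipokines and as genes of the lipid droplet, of lipolysis, of fatty acid and glucose uptake, of triglyceride assembly, of fat cell transcription and of heat production, and each name matched 1 identifier. Of the 34, 33 passed the filter on low counts, and Ucp1 did not. Skin came from wild-type (WT) mice in 2 libraries and from lesions of Itch KO (Itch-/-) mice, which lack the ubiquitin ligase Itch, in 2 libraries, all on the C57BL/6 strain background. Every sample, WT included, carries inflammation as its phenotype in the labels, which give no sex, age, body site, depth of the skin sample or number of animals. The p-values therefore measure the spread between libraries, which may be technical.

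White fat cells of the skin lie in the lower dermis, above the thin sheet of skeletal muscle under mouse skin. They take up glucose and fatty acids, join fatty acids to a glycerol backbone as triglyceride and keep it in a lipid droplet coated by perilipins. Lipases release the fatty acids again when adrenergic signals arrive. This fat layer is known to thicken and thin with the hair growth cycle, and fat cells also secrete hormones such as adiponectin and leptin.

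White adipocyte markers were abundant in every library, so each held the fat cell transcripts that the set is named for. The 6 markers Adipoq, Lep, Retn, Cfd, Plin1 and Cidec summed to 3406 and 1695 CPM in WT against 1828 and 2191 CPM in the knockouts, and the groups overlapped. Cfd was a large part of these sums, at 1576 and 922 CPM in WT against 1058 and 1367 CPM in the knockouts. Of the 6, Adipoq, Lep and Plin1 were lower in both knockouts than in both WT libraries, as were 30.0% of all genes, and 3 overlapped. Here and below, values are given for replicates 1 and 2 in that order, and CPM is the read count of a gene relative to its library size, after scaling by TMM (the trimmed mean of M-values). In bulk skin, fewer fat cells and less RNA per fat cell cannot be told apart.

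Reads assigned to genes numbered 15144957 to 16008351 per library. Itch (ENSMUSG00000027598) stood at 96.7 and 103 CPM in WT against 11.7 and 11.7 CPM in the knockouts, on the side of its label in each library (edgeR log2 fold change -3.09 ± 0.16 SE, adjusted p = 0.0509). Xist stood at 1055 and 631 CPM in WT against 0.947 and 0.892 CPM in the knockouts. Ddx3y, on the Y chromosome, stood at 0.0667 and 0.126 CPM in WT against 69.1 and 48.0 CPM in the knockouts, so genotype and sex cannot be told apart in any comparison given here. The WT libraries stood apart from each other in muscle and hair genes, and each result below is therefore given with each WT library shown separately.

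Promoters of Lep, Adipoq, Plin1 and Pck1 are shown because the first 3 of these genes were lower in both knockout libraries than in both WT libraries, while Pck1 was higher in both. Each stretch runs from 250 bases before to 50 bases after the annotated start in RefSeq (GRCm38.p6), 5′ to 3′ on the strand of the gene. Capitals mark matches to TTGCNNAA, a pattern bound by C/EBP factors such as the product of Cebpa, or to AGGTCA, the half-site of nuclear receptors such as the product of Pparg. The windows lie at chr6:29059971-29060270 on the plus strand for Lep, chr16:23146286-23146585 on the plus strand for Adipoq, chr7:79732727-79733026 on the minus strand for Plin1 and chr2:173152823-173153122 on the plus strand for Pck1.
Lep: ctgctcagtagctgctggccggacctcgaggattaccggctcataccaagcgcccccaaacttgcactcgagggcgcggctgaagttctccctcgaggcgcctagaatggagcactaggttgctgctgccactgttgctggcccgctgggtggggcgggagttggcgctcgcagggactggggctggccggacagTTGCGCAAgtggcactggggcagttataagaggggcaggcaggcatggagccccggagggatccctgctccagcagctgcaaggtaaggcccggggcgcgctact
Adipoq: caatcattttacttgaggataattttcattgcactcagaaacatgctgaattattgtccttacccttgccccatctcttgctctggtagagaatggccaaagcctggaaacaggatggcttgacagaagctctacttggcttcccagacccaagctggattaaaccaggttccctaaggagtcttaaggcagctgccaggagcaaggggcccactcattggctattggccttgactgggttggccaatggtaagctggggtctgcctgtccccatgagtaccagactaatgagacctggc
Plin1: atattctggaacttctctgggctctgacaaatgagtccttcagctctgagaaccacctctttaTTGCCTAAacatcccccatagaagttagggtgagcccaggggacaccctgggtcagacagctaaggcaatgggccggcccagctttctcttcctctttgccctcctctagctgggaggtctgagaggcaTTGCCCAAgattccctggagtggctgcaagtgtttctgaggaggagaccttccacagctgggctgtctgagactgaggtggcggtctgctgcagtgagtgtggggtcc
Pck1: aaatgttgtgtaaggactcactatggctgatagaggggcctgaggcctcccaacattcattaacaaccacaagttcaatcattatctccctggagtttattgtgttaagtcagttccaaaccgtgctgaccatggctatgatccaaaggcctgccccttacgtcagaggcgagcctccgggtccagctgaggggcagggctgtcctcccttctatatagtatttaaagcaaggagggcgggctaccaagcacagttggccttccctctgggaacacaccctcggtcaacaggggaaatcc
Among these windows, Lep held TTGCGCAA, which reads the same on both strands, and Plin1 held TTGCCTAA and TTGCCCAA. AGGTCA was in none of the 4 windows on either strand. RefSeq gave 33 promoter windows for 25 of the 34 genes. TTGCNNAA was in 5 of those 33 windows and in 10.8% of all 32851 windows, searched on both strands. AGGTCA was in 9 of the 33 and in 16.3% of all windows. Some genes have more than 1 window, and these 9 belonged to 6 of the 25 genes. The 5 windows with TTGCNNAA belonged to 5 genes. A match describes letters in the window and not a bound site.

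No fat or lipid storage gene passed the test between genotypes, and at the median the WT libraries differed from each other by more than the knockout libraries did. In the edgeR quasi-likelihood test with Benjamini-Hochberg adjustment over 16651 genes, 0 of 33 members had an adjusted p under 0.05, where 0.00601% of all genes did. The 1 gene called was Eif2s3y on the Y chromosome (log2 fold change 9.02, edgeR adjusted p = 0.0269). With p under 0.05 before adjustment, edgeR had 1 member higher in the knockouts and 4 lower, against 12.0% and 10.9% of all genes. DESeq2 called 2 members lower, Lep and Dgat2, and 0 higher, against 6.16% and 7.83% of all genes, and limma-voom called 0, with 4 members under 0.05 before adjustment. The median log2 fold change of knockout over WT was -0.51 over the 33 members and 0.01 over all genes tested, and 25 members had a negative value and 8 a positive one.

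WT replicate 1 was the library richest in fat transcripts. It held the highest level of 25 of the 33 members, against 38.4% of all genes tested. Of the 33, 26 stood at least 1.5 times higher in WT replicate 1 than in WT replicate 2, against 20.8% of all genes, and 3 stood at least 1.5 times lower. The median ratio of WT replicate 1 to WT replicate 2 was 2.22 over the members and 1.05 over all genes with reads in every library. The knockout libraries lay closer together for the members, with a median ratio of the higher to the lower library of 1.26, against 1.15 over all such genes. The WT ratio keeps its direction and the knockout ratio does not, so 1.05 and 1.15 do not compare the spread of the groups over all genes. Both knockout libraries lay below both WT libraries for 11 members and above both for 2, against 30.0% and 31.2% of all genes, and the groups overlapped for 20. The share below, 11 of 33, was near that of all genes.

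**Figure D1:**
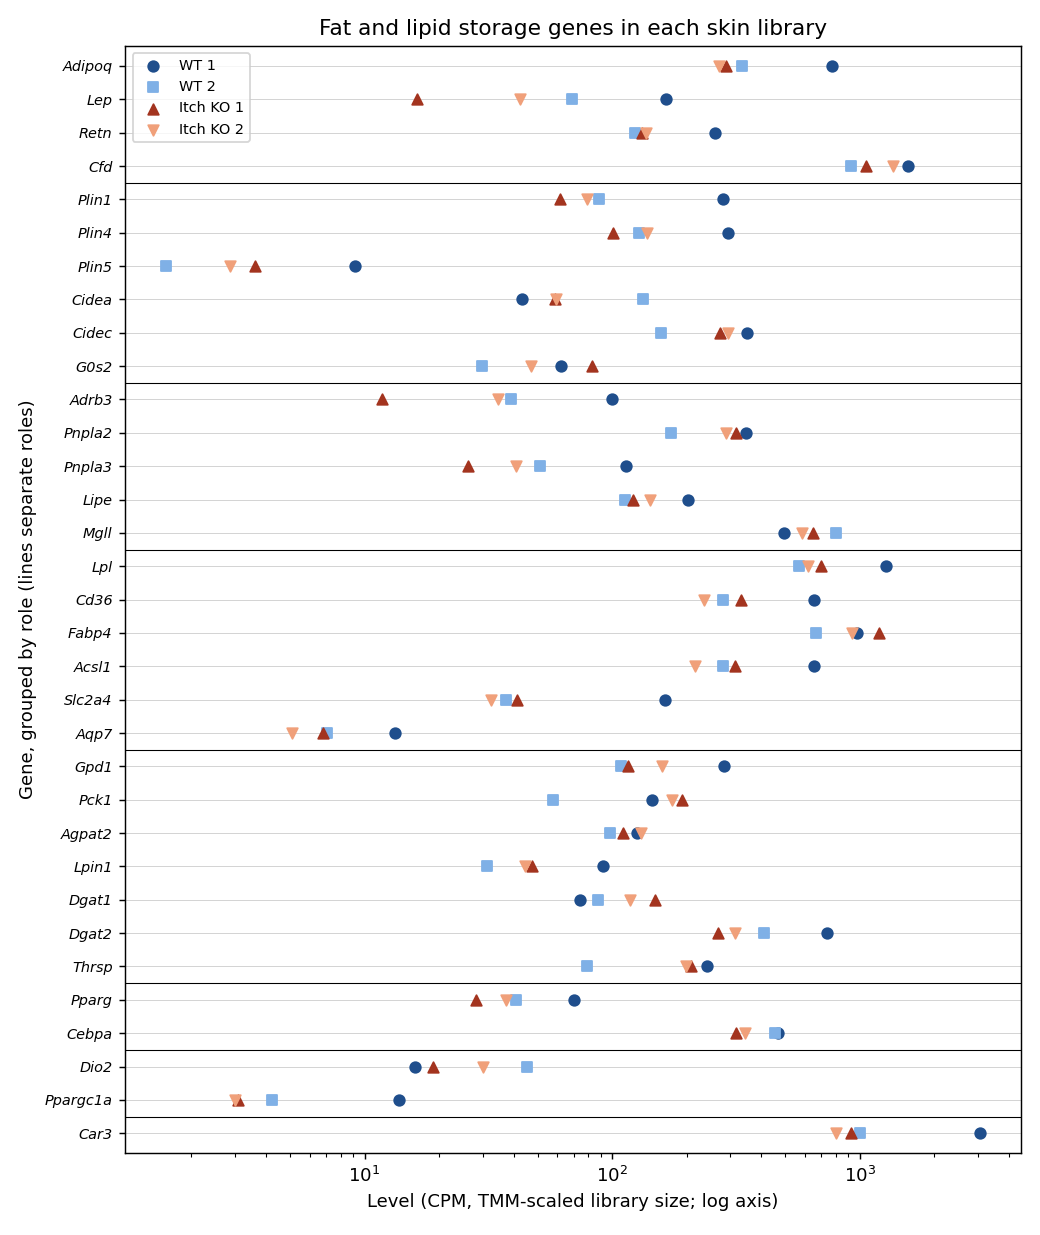
Level of each of the 33 tested fat and lipid storage genes in each of the 4 skin libraries, as CPM on a log axis, with rows grouped by role. Symbols mark WT replicates 1 and 2 and Itch KO replicates 1 and 2. WT replicate 1 is the rightmost symbol for 25 genes, and WT replicate 2 lies among or near the knockout libraries for most of them. Ucp1, with 0 to 7 reads per library, is left out.

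**Figure D2:**
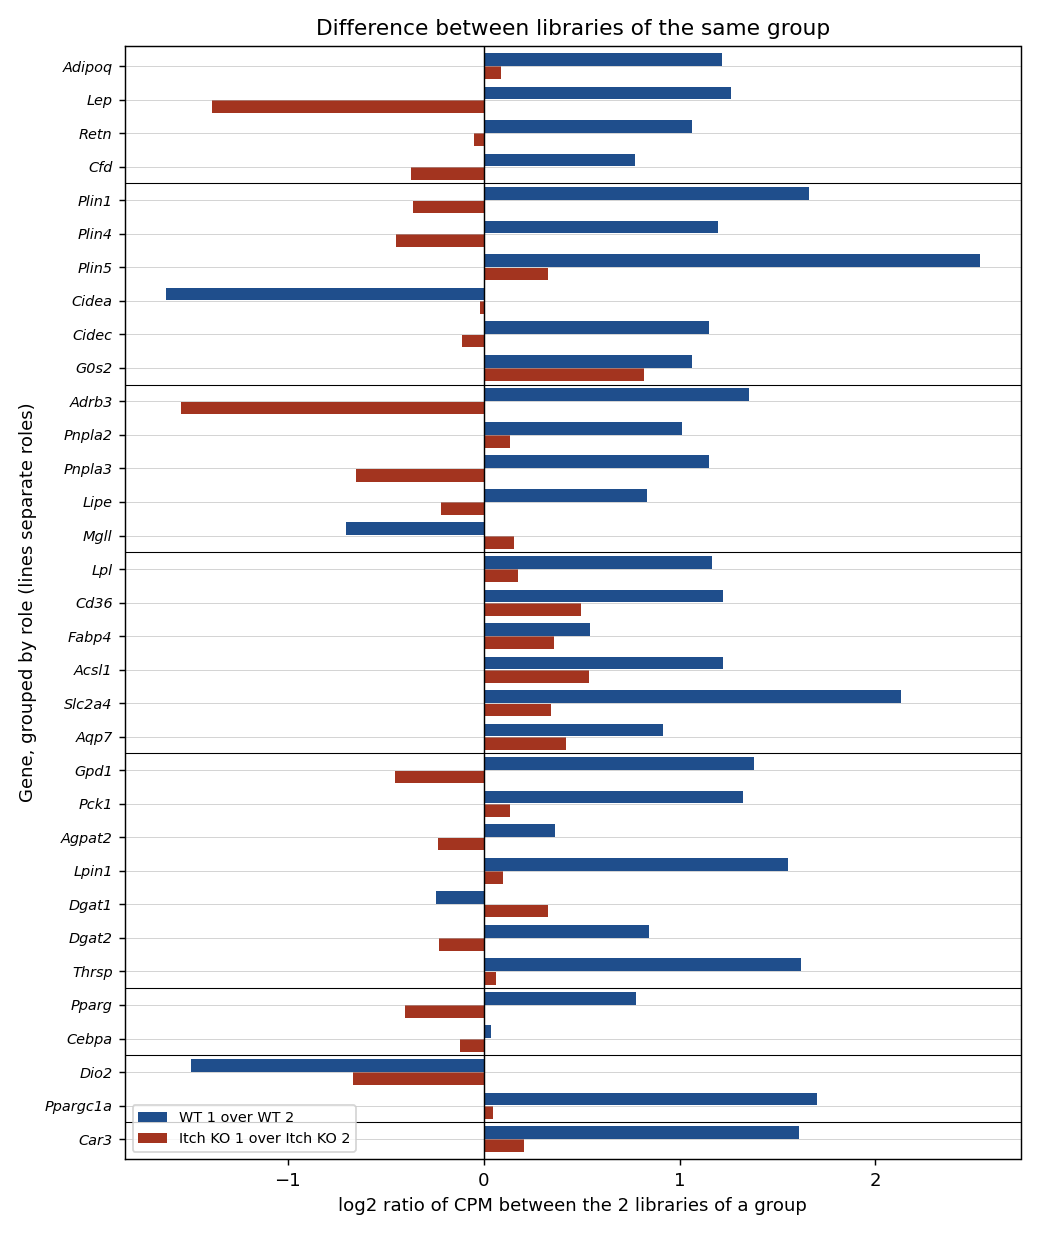
Log2 ratio of CPM between the 2 libraries of each group for each tested gene, blue bars for WT replicate 1 over 2 and red bars for Itch KO replicate 1 over 2. Blue bars point right for most genes, with Cidea, Mgll, Dgat1 and Dio2 as the exceptions. Red bars are short for most genes and long to the left for Lep and Adrb3.

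Per kilobase of mRNA, averaged over the 4 libraries, Cfd stood first at 1335 CPM per kb, followed by Fabp4 at 1051, Car3 at 862 and Adipoq at 322. The mean of the WT libraries had Car3, at 1209.6 CPM per kb, above Fabp4, at 916. In WT replicate 1 Car3, at 1822, was also above Cfd, at 1709 CPM per kb. Lpl, Dgat2, Mgll, Pnpla2, Cidec, Cebpa, Retn, Thrsp and Cd36 followed between 193 and 111 CPM per kb. Neighbours in this order, such as Lpl and Dgat2 or Pnpla2 and Cidec, differed by less than their spread between libraries. The low end held Dio2 at 4.74, Aqp7 at 3.20, Plin5 at 2.16 and Ppargc1a at 0.930 CPM per kb.

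Among the adipokines, Lep and Adipoq were lower in both knockout libraries than in either WT library, and Retn and Cfd were not. Over all genes tested, 30.0% lay below in this way. In edgeR 0 of 4 passed, with Lep lower with p under 0.05 before adjustment, as were 10.9% of all genes. Lep (ENSMUSG00000059201, GRCm38 chromosome 6, 29060220 to 29073877, plus strand), the satiety hormone leptin made by fat cells, stood at 165 and 68.8 CPM in WT against 16.3 and 42.6 CPM in the knockouts. Both knockouts lay below both WT libraries, but the WT libraries differed from each other 2.40-fold and the knockouts 2.61-fold. Its log2 fold change was the lowest of the members (edgeR log2 fold change -1.99 ± 0.67 SE, adjusted p = 0.199), with a DESeq2 adjusted p = 0.0141. Without WT replicate 1 it was -1.23 (edgeR adjusted p = 0.481). Adipoq (ENSMUSG00000022878, GRCm38 chromosome 16, 23146536 to 23158028, plus strand), adiponectin, the hormone most specific to fat cells, stood at 775 and 333 CPM in WT against 287 and 271 CPM in the knockouts (edgeR log2 fold change -0.99 ± 0.44 SE, adjusted p = 0.267). WT replicate 2 lay near the knockouts, and without WT replicate 1 the log2 fold change was -0.26. Retn, the secreted factor resistin of mouse fat, stood at 260.0 and 124 CPM in WT against 133 and 137 CPM in the knockouts (edgeR log2 fold change -0.51 ± 0.38 SE, adjusted p = 0.458), with WT replicate 2 the lowest of the 4. Cfd, adipsin or complement factor D, stood at 1576 and 922 CPM in WT against 1058 and 1367 CPM in the knockouts (edgeR log2 fold change -0.04 ± 0.34 SE, adjusted p = 0.949), and the groups overlapped.

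The 6 lipid droplet genes did not share 1 pattern, and 0 of 6 passed in edgeR or DESeq2 or were under 0.05 in edgeR before adjustment. Plin1 (ENSMUSG00000030546, GRCm38 chromosome 7, 79720218 to 79732903, minus strand), the perilipin that guards the fat cell droplet, stood at 279.5 and 88.5 CPM in WT against 61.9 and 79.5 CPM in the knockouts (edgeR log2 fold change -1.38 ± 0.59 SE, adjusted p = 0.261). Both knockouts lay below both WT libraries, but WT replicate 2 was nearer to them than to WT replicate 1. Plin4, a perilipin of small nascent droplets, stood at 294 and 128 CPM in WT against 101 and 138 CPM in the knockouts (edgeR log2 fold change -0.82 ± 0.45 SE, adjusted p = 0.341), and the groups overlapped. Plin5, a perilipin that oxidative tissues such as skeletal muscle also make, stood at 9.13 and 1.58 CPM in WT against 3.60 and 2.87 CPM in the knockouts (edgeR log2 fold change -0.72 ± 0.88 SE, adjusted p = 0.643), with WT replicate 1 far above the rest. Cidec, which enlarges the single droplet of white fat cells, stood at 350.1 and 158 CPM in WT against 272 and 294 CPM in the knockouts (edgeR log2 fold change 0.16 ± 0.41 SE, adjusted p = 0.841), with WT replicate 2 the lowest. G0s2, an inhibitor of the lipase encoded by Pnpla2, stood at 62.3 and 29.9 CPM in WT against 82.6 and 46.9 CPM in the knockouts (edgeR log2 fold change 0.49 ± 0.47 SE, adjusted p = 0.562). Cidea, a relative of Cidec that sebaceous gland cells also make, ran the other way between the WT libraries, at 43.3 and 133 CPM in WT against 58.7 and 59.4 CPM in the knockouts (edgeR log2 fold change -0.58 ± 0.56 SE, adjusted p = 0.560). The sebaceous gland list of 12 genes showed the same order, summing to 1474 and 4453 CPM in WT against 2867 and 2873 CPM in the knockouts. Krt79 stood at 600.3 and 1924 CPM against 1069 and 1286 CPM and Fa2h at 152 and 674 CPM against 350.5 and 363 CPM. Cidea stood on that list too, and the part of the gland in its level was not tested.

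Of the 5 lipolysis genes, 0 passed in edgeR or DESeq2. Pnpla3 was lower with p under 0.05 in edgeR before adjustment, as were 10.9% of all genes. For Adrb3 and Pnpla3 both knockouts lay below both WT libraries, as for 30.0% of all genes, and for the other 3 the groups overlapped. Adrb3 (ENSMUSG00000031489, GRCm38 chromosome 8, 27225776 to 27250616, minus strand), the beta-3 adrenergic receptor that triggers lipolysis in mouse fat, stood at 99.8 and 39.0 CPM in WT against 11.8 and 34.5 CPM in the knockouts (edgeR log2 fold change -1.58 ± 0.72 SE, adjusted p = 0.279). Both knockouts lay below both WT libraries, and knockout replicate 1 was the lowest by far. Of its exon bases, 24.9% are shared with Gm45470 on the opposite strand, and the strand setting of the counting is not given in the sources used here. Pnpla2, the adipose triglyceride lipase that makes the first cut, stood at 349 and 173 CPM in WT against 316 and 288 CPM in the knockouts (edgeR log2 fold change 0.21 ± 0.37 SE, adjusted p = 0.758), inside the range of the WT libraries. Lipe, hormone-sensitive lipase for the second cut, stood at 202 and 113 CPM in WT against 122 and 142 CPM in the knockouts (edgeR log2 fold change -0.25 ± 0.32 SE, adjusted p = 0.656), with 15.6% of its exon bases shared with 4732471J01Rik on the opposite strand. Mgll, monoacylglycerol lipase for the last cut, stood at 495 and 806 CPM in WT against 650.0 and 585 CPM in the knockouts (edgeR log2 fold change -0.08 ± 0.29 SE, adjusted p = 0.891), higher in WT replicate 2 than in WT replicate 1. For each of the 3 lipases of the cascade the WT libraries bracketed both knockouts. Pnpla3, a lipid droplet protein related to Pnpla2, stood at 114 and 51.1 CPM in WT against 26.1 and 41.1 CPM in the knockouts (edgeR log2 fold change -1.29 ± 0.48 SE, adjusted p = 0.218), with both knockouts lowest.

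Uptake genes were highest in WT replicate 1 for 5 of 6 members, as were 25 of all 33 members and 38.4% of all genes tested. Of the 6, 0 passed in edgeR or DESeq2 or were under 0.05 in edgeR before adjustment. Lpl, the lipase that frees fatty acids from blood lipoproteins, stood at 1284 and 571 CPM in WT against 699 and 619 CPM in the knockouts (edgeR log2 fold change -0.49 ± 0.43 SE, adjusted p = 0.516). Cd36, a fatty acid receptor, stood at 657 and 281 CPM in WT against 332 and 235 CPM in the knockouts (edgeR log2 fold change -0.73 ± 0.47 SE, adjusted p = 0.398). Acsl1, which activates fatty acids with coenzyme A, stood at 652 and 279.9 CPM in WT against 313 and 216 CPM in the knockouts (edgeR log2 fold change -0.82 ± 0.47 SE, adjusted p = 0.358). These 3 had the same pattern, with WT replicate 2 within or beside the knockout range. Fabp4 (ENSMUSG00000062515, GRCm38 chromosome 3, 10204088 to 10208576, minus strand), the fatty acid binding protein of fat cells that macrophages and vessels also make, stood at 974 and 668 CPM in WT against 1194 and 932 CPM in the knockouts (edgeR log2 fold change 0.37 ± 0.28 SE, adjusted p = 0.452). It was the member of this group with its highest level in a knockout library. Slc2a4, the insulin-regulated glucose transporter GLUT4 of fat and muscle, stood at 164 and 37.4 CPM in WT against 41.3 and 32.6 CPM in the knockouts (edgeR log2 fold change -1.44 ± 0.74 SE, adjusted p = 0.317). Aqp7, a channel that lets glycerol leave fat cells, stood at 13.3 and 7.07 CPM in WT against 6.82 and 5.10 CPM in the knockouts (edgeR log2 fold change -0.77 ± 0.43 SE, adjusted p = 0.341).

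Triglyceride assembly held the only 2 members with both knockouts above both WT libraries, Pck1 and Dgat1. Of all genes tested, 31.2% lay above in this way. In edgeR 0 of 7 assembly genes passed, with Dgat1 and Dgat2 under 0.05 before adjustment, and DESeq2 called Dgat2. Of all genes, 12.0% were higher and 10.9% lower in edgeR at that p, and DESeq2 called 6.16% lower. Pck1 (ENSMUSG00000027513, GRCm38 chromosome 2, 173153048 to 173159273, plus strand), whose enzyme works in the making of the glycerol backbone in fat cells, stood at 145 and 57.8 CPM in WT against 192 and 175 CPM in the knockouts (edgeR log2 fold change 0.86 ± 0.47 SE, adjusted p = 0.337). The WT libraries differed 2.51-fold and the knockouts by less. Dgat1 (ENSMUSG00000022555, GRCm38 chromosome 15, 76502015 to 76511953, minus strand), one of the enzymes that add the last fatty acid, stood at 74.3 and 87.9 CPM in WT against 149 and 119 CPM in the knockouts (edgeR log2 fold change 0.72 ± 0.19 SE, adjusted p = 0.154), with an unadjusted p of 0.0175. No other member had a lower adjusted p in edgeR, and the value from DESeq2 was adjusted p = 0.0516. Dgat2 (ENSMUSG00000030747, GRCm38 chromosome 7, 99153658 to 99182719, minus strand), an unrelated enzyme for the same step, ran the opposite way at 740.3 and 413 CPM in WT against 269 and 315 CPM in the knockouts (edgeR log2 fold change -0.98 ± 0.33 SE, adjusted p = 0.197). Both knockouts lay below both WT libraries, with a DESeq2 adjusted p = 0.0493. Without WT replicate 1 the log2 fold change was -0.50 (edgeR adjusted p = 0.144).

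The other assembly genes overlapped between groups. Gpd1, which makes glycerol phosphate from glucose, stood at 284 and 109 CPM in WT against 117 and 159.6 CPM in the knockouts (edgeR log2 fold change -0.51 ± 0.51 SE, adjusted p = 0.573), with 13.0% of its exon bases shared with Gm16537 on the opposite strand. Agpat2, which adds the second fatty acid, stood at 126 and 97.8 CPM in WT against 111 and 131 CPM in the knockouts (edgeR log2 fold change 0.11 ± 0.20 SE, adjusted p = 0.757) and differed little among the 4 libraries. Lpin1, which removes the phosphate, stood at 92.1 and 31.4 CPM in WT against 47.6 and 44.4 CPM in the knockouts (edgeR log2 fold change -0.42 ± 0.54 SE, adjusted p = 0.661). Thrsp, a lipogenic protein responsive to thyroid hormone, stood at 243 and 79.0 CPM in WT against 208 and 199 CPM in the knockouts (edgeR log2 fold change 0.34 ± 0.56 SE, adjusted p = 0.738). For Thrsp and Lpin1, WT replicate 2 was the lowest and WT replicate 1 the highest library.

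The transcription factors Pparg and Cebpa, which drive and maintain the fat cell state together, both lay lower in the knockout libraries than in the WT libraries. So did 30.0% of all genes tested. In edgeR and DESeq2 0 of 2 passed. Cebpa was lower with p under 0.05 in edgeR before adjustment, as were 10.9% of all genes. Pparg (ENSMUSG00000000440, GRCm38 chromosome 6, 115360951 to 115490399, plus strand) stood at 70.1 and 40.8 CPM in WT against 28.2 and 37.3 CPM in the knockouts (edgeR log2 fold change -0.76 ± 0.33 SE, adjusted p = 0.263). Cebpa (ENSMUSG00000034957, GRCm38 chromosome 7, 35119293 to 35121928, plus strand) stood at 470.0 and 457 CPM in WT against 318 and 346 CPM in the knockouts (edgeR log2 fold change -0.48 ± 0.16 SE, adjusted p = 0.190), with an unadjusted p of 0.0342. The WT libraries of Cebpa nearly coincided, unlike those of the adipokines, and its log2 fold change was -0.47 without WT replicate 1 and -0.50 without WT replicate 2. Cebpa is also made by keratinocytes and sebaceous gland cells.

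Genes of heat production were low, and 0 of 2 tested passed in edgeR or DESeq2 or were under 0.05 in edgeR before adjustment. Ucp1, the uncoupling protein that defines brown fat, had 1 and 1 reads in WT against 0 and 7 in the knockouts, too few to test. Dio2, which activates thyroid hormone, stood at 16.1 and 45.2 CPM in WT against 18.9 and 30.0 CPM in the knockouts (edgeR log2 fold change -0.33 ± 0.57 SE, adjusted p = 0.757). Ppargc1a, a coactivator of mitochondrial genes in brown fat and muscle, stood at 13.7 and 4.23 CPM in WT against 3.09 and 2.99 CPM in the knockouts (edgeR log2 fold change -1.56 ± 0.65 SE, adjusted p = 0.248). Outside these roles, Car3, a carbonic anhydrase very abundant in fat cells and slow muscle, stood at 3059.8 and 1002 CPM in WT against 926 and 803 CPM in the knockouts (edgeR log2 fold change -1.23 ± 0.57 SE, adjusted p = 0.283), with WT replicate 1 3.05-fold above WT replicate 2.

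**Figure D3:**
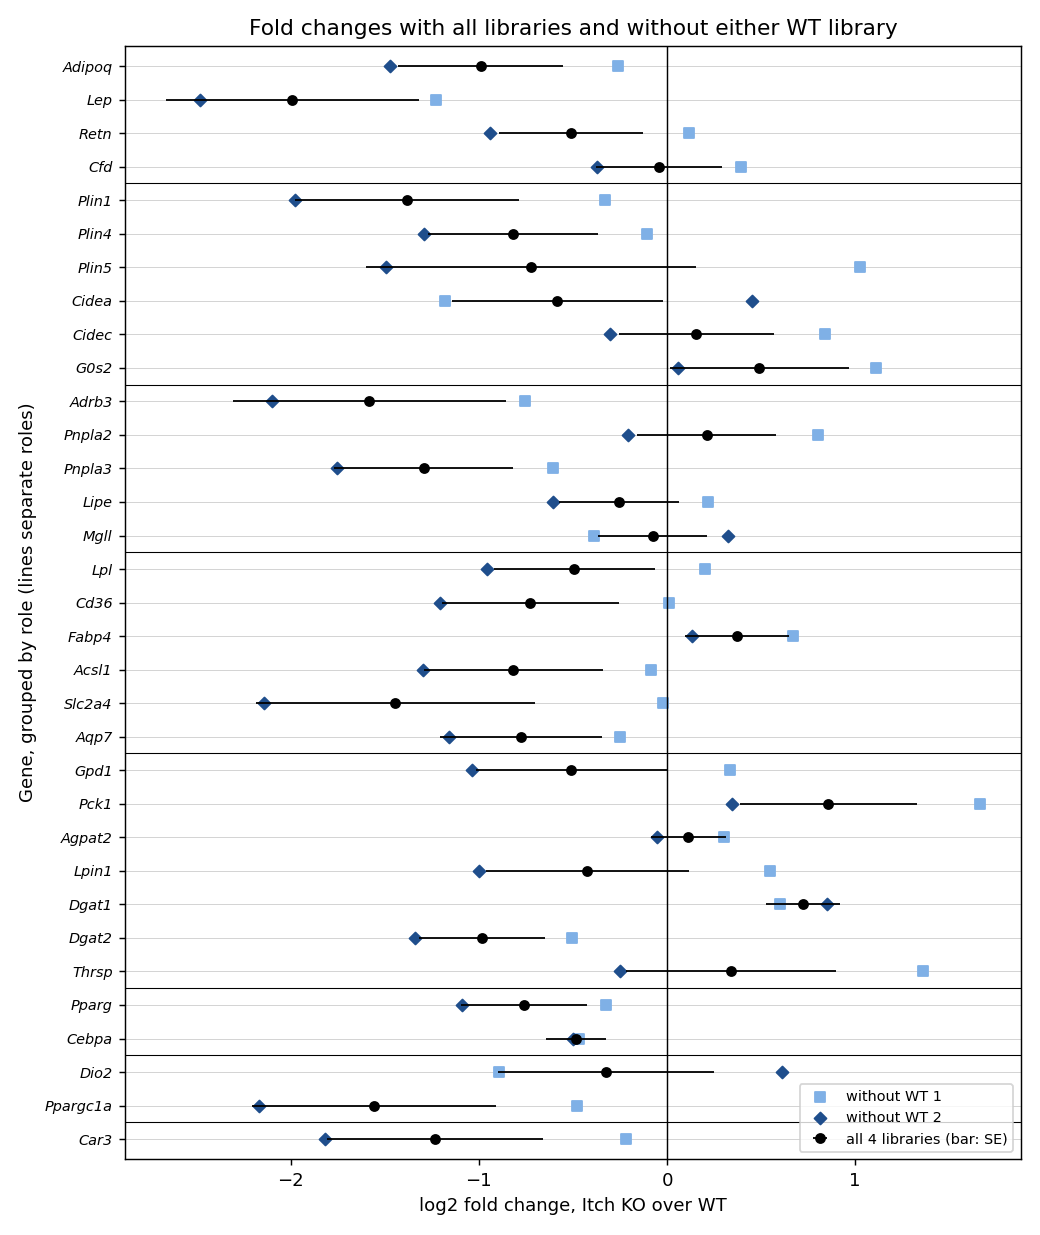
Log2 fold change of Itch KO over WT for each tested gene, black circles with SE bars for all 4 libraries, light squares without WT replicate 1 and dark diamonds without WT replicate 2. For most genes the squares lie close to or right of 0 and the diamonds lie left of the circles. Cebpa and Dgat1 stay close to the same value in all 3 fits, while Cidea, Mgll and Dio2 have the squares on the left.

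The members' results depended on which WT library was kept. Without WT replicate 2, edgeR called 18 members lower and 1 higher, where 15.3% of all genes were called lower and 15.3% higher. Without WT replicate 1 it called 1 lower and 4 higher, against 2.17% and 5.52% of all genes. With 1 WT library left, these fits assume that it varies like the knockout libraries. Set against WT replicate 2 alone, Pck1 had a log2 fold change of 1.66 (edgeR adjusted p = 0.00773), Thrsp 1.36 (edgeR adjusted p = 0.0110), Cidec 0.84 (edgeR adjusted p = 0.0359) and Pnpla2 0.80 (edgeR adjusted p = 0.0417). Cidea was the member called lower there, at -1.18 (edgeR adjusted p = 0.0122). Set against WT replicate 1 alone, Slc2a4 had -2.14 (edgeR adjusted p = 0.000974), Plin1 -1.98 (edgeR adjusted p = 0.00135) and Adipoq -1.47 (edgeR adjusted p = 0.00174), while Dgat1 was higher at 0.85 (edgeR adjusted p = 0.0239). The values of these genes without WT replicate 1 were -0.02 for Slc2a4 (edgeR adjusted p = 0.968), -0.33 for Plin1 (edgeR adjusted p = 0.382) and 0.60 for Dgat1 (edgeR adjusted p = 0.131). Of the 33 members, 18 kept their direction with each library left out in turn and 15 did not. Among the 18 were genes that came near 0 without WT replicate 1, such as Slc2a4, Acsl1 at -0.0862, Plin4 at -0.10 and Car3 at -0.22.

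Reads of each member were set against 100 reads of Adipoq in the same library, a denominator chosen after the values were seen. On this scale 61.4% of all other tested genes lay above both WT libraries in both knockouts and 4.84% below, so a member that lay above did as most genes did. Pck1 came to 18.7 and 17.3 in WT against 66.9 and 64.6 in the knockouts, and Thrsp to 31.3 and 23.7 in WT against 72.3 and 73.6 in the knockouts. The WT libraries, which differed 2.51-fold in Pck1 CPM, were close for Pck1 on this scale, and both knockouts were far above them for both genes. Pnpla2 came to 45.1 and 51.8 in WT against 109.9 and 106 in the knockouts, and Cidec to 45.2 and 47.3 in WT against 94.7 and 109 in the knockouts. Lep came to 21.3 and 20.6 in WT against 5.67 and 15.7 in the knockouts, with WT libraries that nearly coincided and both knockouts lower, the first by more. Adrb3 came to 12.9 and 11.7 in WT against 4.11 and 12.8 in the knockouts, where knockout replicate 1 alone was low.

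Over the 32 other members, both knockouts lay above both WT libraries on this scale for 15 and below for 2, Lep and Ppargc1a. The 15 of 32 were a smaller share than that of all genes and are no result about these members. Pck1, Thrsp, Cidec, Pnpla2, G0s2, Fabp4, Cfd, Lipe, Agpat2 and Dgat1 were above in both knockouts with Plin1, Plin4 and Retn each as denominator. Lep was below with each. The counts of 32 members moved with the denominator, at 16 above and 1 below with Plin1, 14 and 5 with Plin4 and 10 and 9 with Retn. The shares of all genes above were 62.1% with Plin1, 41.8% with Plin4 and 31.6% with Retn, and the shares below were 2.53%, 5.11% and 10.4%, so these positions are descriptions too. A ratio shows unequal change and not which of its genes changed.

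**Figure D4:**
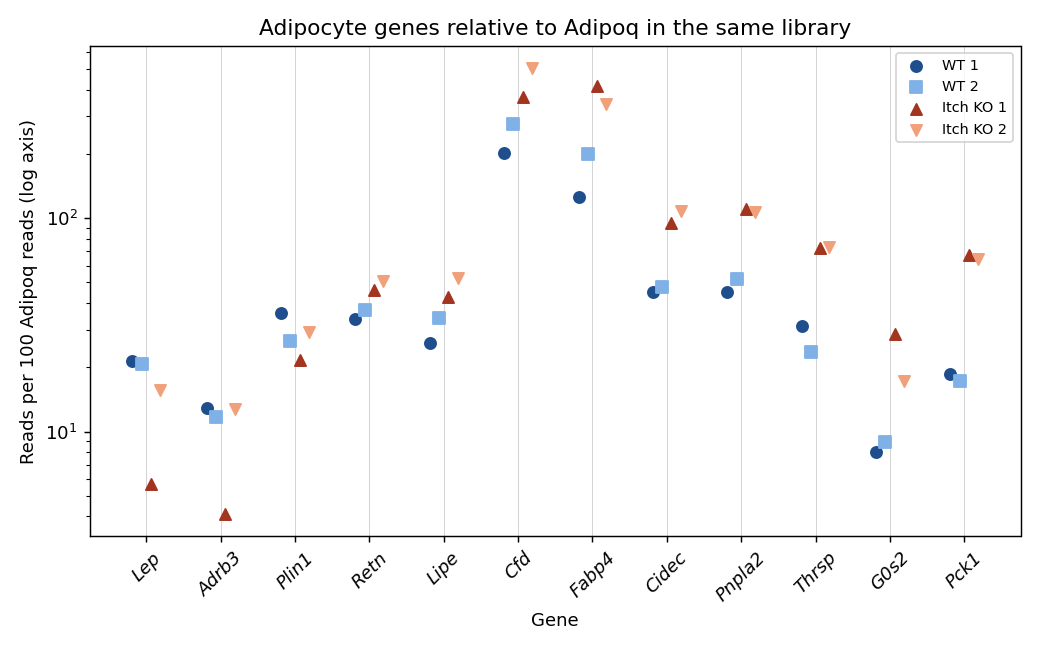
Reads of 12 members per 100 Adipoq reads in the same library, on a log axis, with a symbol for each of the 4 libraries and genes chosen after their values were seen. The WT symbols lie close together for Lep, Adrb3, Retn, Cidec, Pnpla2, G0s2 and Pck1. Both knockouts lie above both WT symbols for Retn, Lipe, Cfd, Fabp4, Cidec, Pnpla2, Thrsp, G0s2 and Pck1 and below them for Lep. On this scale 61.4% of all other tested genes lay above in both knockouts.

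Further genes of fat biology were taken from 7 lists written for this set with earlier results of these data known, and 0 of their tested members passed in edgeR. Over all genes, edgeR had 12.0% higher and 10.9% lower with p under 0.05 before adjustment. DESeq2 called 7.83% of all genes higher and 6.16% lower. The counts of each list are to be read beside these shares. The list of adipocyte identity held 21 tested genes with a median log2 fold change of -0.37, of which 2 were higher and 1 lower with p under 0.05 before adjustment, and DESeq2 called the same 3. Angptl4, an inhibitor of lipoprotein lipase induced by fasting and fatty acids, stood at 43.7 and 46.8 CPM in WT against 168 and 145 CPM in the knockouts (edgeR log2 fold change 1.79 ± 0.16 SE, adjusted p = 0.0548). Cebpd, an early factor of fat cell formation that inflammation also induces, stood at 13.3 and 12.4 CPM in WT against 54.8 and 90.2 CPM in the knockouts (edgeR log2 fold change 2.50 ± 0.31 SE, adjusted p = 0.0658). For both, the knockouts were far above WT libraries that nearly coincided.

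In the list of further droplet and lipase genes, 1 of 15 was higher and 4 were lower with p under 0.05 before adjustment in edgeR, and DESeq2 called 1 higher and 2 lower (median -0.20). Over all genes, edgeR had 12.0% higher and 10.9% lower at that p, and DESeq2 called 7.83% and 6.16%. Hilpda, a droplet protein induced by low oxygen that inhibits the lipase of Pnpla2, stood at 12.5 and 23.7 CPM in WT against 89.9 and 42.5 CPM in the knockouts (edgeR log2 fold change 1.87 ± 0.52 SE, adjusted p = 0.159), and both knockouts lay above both WT libraries. Fitm2, a droplet-forming protein of the endoplasmic reticulum, stood at 114 and 108 CPM against 78.0 and 75.0 CPM. The droplet enzyme gene Hsd17b13 stood at 2.00 and 1.20 CPM against 0.568 and 0.446 CPM. The further triglyceride assembly list had 2 of 11 lower and 0 higher with p under 0.05 before adjustment in edgeR, and DESeq2 called the same genes (median -0.24). Gpam, the mitochondrial enzyme that adds the first fatty acid, stood at 149.9 and 89.8 CPM in WT against 45.7 and 37.6 CPM in the knockouts (edgeR log2 fold change -1.53 ± 0.31 SE, adjusted p = 0.109). Agpat3, of the same family as Agpat2, stood at 207 and 224 CPM against 134 and 149 CPM. Acsl5, a fatty acid activating enzyme, stood at 403 and 566 CPM against 324 and 337 CPM, with both knockouts lowest.

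Fatty acid synthesis had 0 of 12 genes with p under 0.05 before adjustment in edgeR, and DESeq2 called 0 (median -0.29). Slc25a1, the mitochondrial citrate carrier, stood at 148 and 179 CPM against 195 and 231 CPM. Mlxipl, the glucose-sensing factor ChREBP, stood at 31.7 and 6.88 CPM against 5.75 and 7.65 CPM, and Elovl6, a fatty acid elongase, at 500.1 and 1516 CPM against 368 and 543 CPM. Mlxipl was high in WT replicate 1 alone and Elovl6 in WT replicate 2 alone. Insulin signalling had 2 of 10 genes lower and 0 higher with p under 0.05 before adjustment in edgeR, and DESeq2 called the same genes (median -0.35). Of all genes, 10.9% were lower in edgeR at that p, and DESeq2 called 6.16% lower. Irs1, the main docking protein of the insulin receptor in fat and muscle, stood at 27.7 and 15.5 CPM in WT against 4.23 and 4.71 CPM in the knockouts (edgeR log2 fold change -2.27 ± 0.38 SE, adjusted p = 0.0867). Insr, the receptor, stood at 82.9 and 46.5 CPM against 47.8 and 38.8 CPM.

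The brown and beige fat list had 2 of 11 higher and 1 lower with p under 0.05 before adjustment in edgeR, and DESeq2 called 1 higher and 2 lower (median 0.04). The shares of all genes were 12.0% and 10.9% in edgeR at that p, and 7.83% and 6.16% in DESeq2. Tmem26, used as a marker of beige fat cells, stood at 5.20 and 3.47 CPM in WT against 11.7 and 15.0 CPM in the knockouts (edgeR log2 fold change 1.62 ± 0.35 SE, adjusted p = 0.116). Lhx8, used as a marker of brown fat, stood at 1.93 and 1.45 CPM against 3.09 and 5.67 CPM. Ppara, a receptor that drives fatty acid burning, stood at 14.4 and 6.25 CPM in WT against 2.21 and 1.34 CPM in the knockouts (edgeR log2 fold change -2.53 ± 0.58 SE, adjusted p = 0.126).

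In the list of adipocyte progenitors, 5 of 8 genes were higher and 0 lower with p under 0.05 before adjustment in edgeR, and DESeq2 called the same 5 (median 1.02). Of all genes, 12.0% were higher in edgeR at that p, and DESeq2 called 7.83% higher. Pdgfra, a receptor of fibroblasts and fat precursors, stood at 28.1 and 49.7 CPM in WT against 163 and 156 CPM in the knockouts (edgeR log2 fold change 2.04 ± 0.32 SE, adjusted p = 0.0802). Pdgfrb, a receptor of pericytes and precursors, stood at 24.3 and 28.1 CPM in WT against 117 and 81.7 CPM in the knockouts (edgeR log2 fold change 1.92 ± 0.24 SE, adjusted p = 0.0678). Pi16, a marker of early precursors and universal fibroblasts, stood at 148 and 98.3 CPM in WT against 346 and 275 CPM in the knockouts (edgeR log2 fold change 1.34 ± 0.27 SE, adjusted p = 0.110). For each of these, both knockouts lay above both WT libraries. Most of these genes are shared with other skin fibroblasts.

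**Figure D5:**
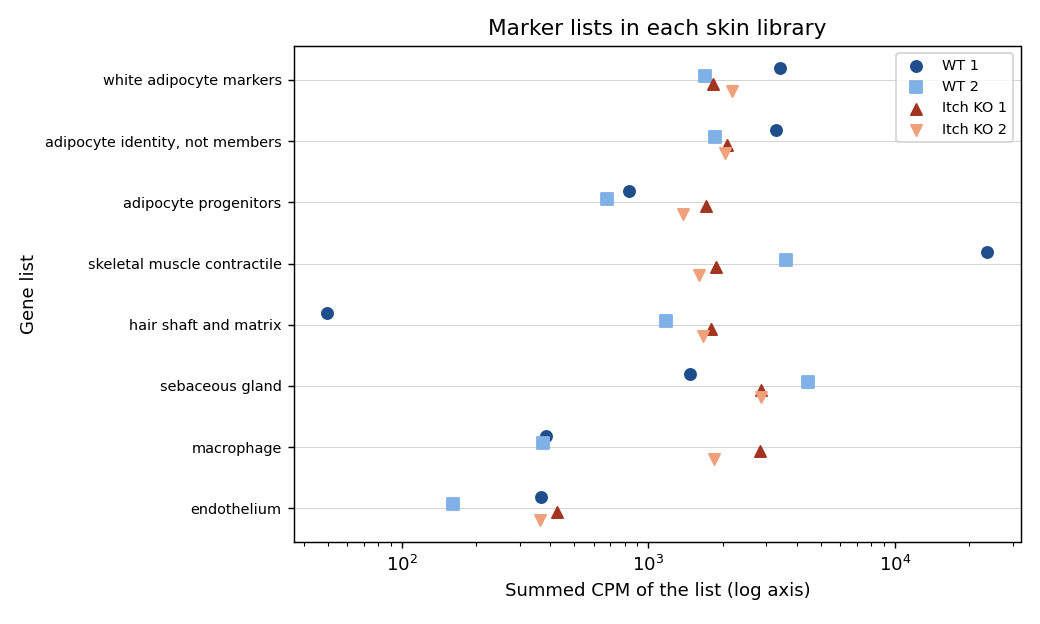
Summed CPM of 8 gene lists in each library on a log axis, with a symbol for each of the 4 libraries. Muscle transcripts are highest and hair transcripts lowest in WT replicate 1, macrophage transcripts separate the knockouts from both WT libraries, and adipocyte markers are highest in WT replicate 1.

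Markers of other tissues also differed between the libraries, and their part in the results was not tested. Muscle markers were highest in WT replicate 1, as most fat genes were, and hair markers were lowest there. The skeletal muscle list of 20 genes summed to 23721 and 3619 CPM in WT against 1874 and 1599.6 CPM in the knockouts. WT replicate 1 was highest for 19 of 19 tested genes, against 38.4% of all genes, and Tnnc2 was too low to test. Acta1, skeletal actin, stood at 4121 and 724 CPM against 409.8 and 353 CPM and Atp2a1, the calcium pump of fast fibres, at 2717 and 374 CPM against 172 and 158 CPM. Muscle also makes Slc2a4, Plin5, Ppargc1a, Car3, Lpl and Cd36. Adipoq, Lep and Plin1 were 2.32-, 2.40- and 3.16-fold higher in WT replicate 1 than in WT replicate 2. The hair shaft and matrix list of 13 genes summed to 49.8 and 1174 CPM in WT against 1798 and 1669.8 CPM in the knockouts. Its most abundant genes were Krt35 at 1.73 and 337 CPM against 245 and 393 CPM and Krt33a at 1.27 and 147 CPM against 278 and 216 CPM. All 13 were at least 1.5 times lower in WT replicate 1 than in WT replicate 2, and the share of all genes was not counted.

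Vessel and macrophage markers bear on Fabp4, Lpl and Cd36, which those cells also make. The endothelial list of 8 genes summed to 368 and 161 CPM in WT against 426 and 362 CPM in the knockouts. WT replicate 2 was lowest for 8 of 8 and for 14 of the 33 members, and the share of all genes was not counted. Pecam1 stood at 121 and 58.8 CPM against 156 and 143 CPM and Cdh5 at 64.6 and 22.7 CPM against 65.9 and 51.2 CPM. The macrophage list of 10 genes summed to 382 and 374 CPM in WT against 2824 and 1841 CPM in the knockouts. Lyz2 stood at 188 and 188 CPM against 1032 and 573 CPM and Mrc1 at 26.3 and 38.4 CPM against 368 and 432 CPM. Of these 10, 9 were higher in edgeR with p under 0.05 before adjustment, against 12.0% of all genes. DESeq2 called the same 9, against 7.83% of all genes, and 0 passed in edgeR, where the lowest adjusted p was 0.0548. Leaving the muscle list out of the library totals and the scaling left the members' median log2 fold change at -0.54 and called 0 of 33 in edgeR. That fit changes the scaling alone and keeps any reads of the members that come from muscle, so it does not test the part of muscle.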

How the data were processed

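The authors deposited raw read counts per Ensembl gene, with 1 file for each library. The submitters' processing notes name HTSeq 0.6.1, SAMtools 0.1.19, TopHat2 and CASAVA 1.8.2 beside the build mm10 (GRCm38). Not given in the sources used here: the annotation release, the strand setting and the TopHat2 version. The 5 counter lines stayed out of totals and tests: 5.68% to 7.45% of reads lay in no feature and 4.48% to 4.70% were ambiguous. Symbols, coordinates and mRNA lengths (longest principal protein-coding transcript) came from GENCODE vM21, which held 37693 of 39179 identifiers.

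Genes were kept by filterByExpr (minimum count 10), scaled by TMM and compared with the two-sided quasi-likelihood F test of edgeR 4.0.16 (robust=TRUE, legacy=TRUE; R 4.3.3), with Benjamini-Hochberg adjustment over 16651 genes and a threshold of 0.05. DESeq2 1.42.0, limma-voom (limma 3.58.1), other scalings, no filter, a replicate block and leaving out each library were alternatives. The biological coefficient of variation was 0.341. A count of 0 allows up to 0.187 to 0.198 CPM at 3 counts per library, for counting error only. Named genes were the 34 members, the genes with the smallest p of each fat list, up to 3, and the most abundant markers of each other tissue, up to 2. A gene that this rule names in the fat lists is counted but not reported here. Xist and Ddx3y were named after their values were seen. The members and lists were chosen with earlier results of these data known. The list symbols Pref1 and Krt85 had no match.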

Additional observations from a re-analysis of the deposited data

How the results depend on the processing

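All 33 tested members kept their direction under DESeq2, limma-voom, RLE size factors, library totals alone, totals without the muscle list, no filter on low counts and the replicate block. edgeR called 0 members under these scalings and without the filter, limma-voom called 0, and DESeq2 called 2. With 1 library left out, the count of members called ran from 0 to 19. It was 5 without WT replicate 1, 19 without WT replicate 2 and 0 without either knockout library. The median log2 fold change of the members was -0.38 under limma-voom, -0.997 without WT replicate 2 and -0.02 without WT replicate 1, and lay from -0.58 to -0.38 under the other planned settings.

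The count of genes called over the whole table was unstable. It was 2329 in DESeq2, 0 in limma-voom (3566 with p under 0.05 before adjustment), 488 of 24574 genes without the filter, and 0 to 5320 with 1 library left out. Without knockout replicate 1 or 2 it was 0, with 1432 and 1501 genes under 0.05 before adjustment. The cause was not tested.

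With the replicate number as a block, edgeR called 0 genes in all (3998 with p under 0.05 before adjustment) and 0 members (2 before adjustment). The members' median was -0.38. Same-numbered libraries deviated together with a correlation of 0.182 across genes, and 2 pairs are too few to show that the numbers pair the libraries.

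With 1 library left out, 15 members reversed, and the log2 fold change ran from -0.94 to 0.12 for Retn, -0.37 to 0.39 for Cfd, -1.49 to 1.03 for Plin5, -1.18 to 0.45 for Cidea, -0.30 to 0.84 for Cidec and -0.21 to 0.80 for Pnpla2. It ran from -0.61 to 0.22 for Lipe, -0.39 to 0.32 for Mgll, -0.96 to 0.20 for Lpl, -1.21 to 0.0085 for Cd36 and -1.03 to 0.34 for Gpd1. For Agpat2 it ran from -0.052 to 0.30, for Lpin1 from -0.997 to 0.55, for Thrsp from -0.25 to 1.36 and for Dio2 from -0.89 to 0.61. Scaling the libraries to the members themselves, chosen after seeing the data, called 0 members and 1137 genes in all and moved the median of all genes to 0.36. It turned Retn to 0.026, Cfd to 0.44, Plin5 to 0.0079, Lipe to 0.24, Mgll to 0.16, Lpl to 0.059, Gpd1 to 0.075 and Lpin1 to 0.19.

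The number of libraries, 2 a group, limits the precision, and the WT libraries differed in fat, muscle and hair transcripts. Ucp1 was at the counting floor.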
